A study of Homo sapiens with 6 samples.

Results

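H3K79me3 was compared with H3K79me2 inside KDM2B-depleted cells. The data were peak lists from chromatin immunoprecipitation followed by sequencing (ChIP-seq), in which antibody-bound DNA fragments are sequenced and each mapped read counts as a tag. Peaks of both knockdown libraries on chromosomes 1 to 22 and X were merged wherever they shared at least 1 bp, which joined 6176 H3K79me2 peaks and 7042 H3K79me3 peaks into 7934 regions. Pooling all 4 ChIP lists of the study gave 8868 regions. Both marks were present in 5129 of the 7934 knockdown regions, H3K79me3 alone in 1760 and H3K79me2 alone in 1045.

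Lysine 79 lies in the globular core of histone H3, away from the tail that carries most studied histone marks. DOT1L is the enzyme that adds its mono-, di- and trimethyl forms, one methyl group at a time, and these forms are found mainly over the 5′ part of transcribed genes. KDM2B belongs to the JmjC family of histone demethylases and is also a DNA-binding subunit of a variant Polycomb complex. The title of the series names KDM2B as an H3K79 demethylase, so the relative amount and placement of the dimethyl and trimethyl forms in cells depleted of it is one comparison that the design holds.

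The cells were 293T, a human embryonic kidney line transformed with adenovirus DNA and carrying the SV40 large T antigen. The knockdown line stably expressed a hairpin RNA against KDM2B (shKDM2B), and its counterpart stably expressed a control hairpin (shCTL). In each line 1 library was made with an Abcam antibody to H3K79me2 (ab3594, lot GR240609-1), 1 with an Abcam antibody to H3K79me3 (ab2621, lot GR188147-2) and 1 from input DNA without antibody, so every group is 1 library and no comparison here has a replicate check or a p-value. The 2 marks were read with different antibodies in different libraries, so the mark, the antibody and the library cannot be told apart. The level of KDM2B in these cells was not analysed here.

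The knockdown H3K79me2 library held 13144744 tags after removal of duplicates and the H3K79me3 library 16389356, or 1.25 times as many. Of these, 10.8% and 14.3% lay inside called peaks. The fragment length estimated by the peak caller was 210 bp for H3K79me2 and 126 bp for H3K79me3, and the order was opposite in the control line, at 148 and 180 bp. Peaks called in the input libraries, 810 in the knockdown and 873 in the control line, overlapped 3.26% of regions with both marks, 5.17% of regions with H3K79me3 alone and 2.39% of those with H3K79me2 alone. Intervals given below cover counting error, or the spread over regions, within these libraries only.

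The marks shared most of their sites. Regions with both marks made up 64.6% of all knockdown regions (exact binomial 95% interval 63.6 to 65.7), those with H3K79me3 alone 22.2% (21.3 to 23.1) and those with H3K79me2 alone 13.2% (12.4 to 13.9). Counted by peak, 5131 of 6176 H3K79me2 peaks (83.1%) touched an H3K79me3 peak, and 5282 of 7042 H3K79me3 peaks (75%) touched an H3K79me2 peak. The called length was almost equal, 20.9 Mb for H3K79me2 and 20.4 Mb for H3K79me3, and 13.3 Mb lay under both. The balance of sites with 1 mark depended on the number of peaks called. With the lists cut to the same number of peaks, 1257 knockdown regions held H3K79me3 alone and 1338 held H3K79me2 alone, so the larger class turned. In the control libraries, of 7808 regions 4518 (57.9%) held both marks, 1023 (13.1%) H3K79me3 alone and 2267 (29.0%) H3K79me2 alone. The share with both marks ranged over the knockdown chromosomes from 57.6% on chromosome 6 to 75.8% on chromosome 19, and the share with H3K79me3 alone from 10.8% on chromosome 19 to 28.6% on chromosome 5.

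A shared region was usually a pair of single peaks. Of the 5129, 4976 (97.0%) held 1 peak of each mark and 150 held 1 H3K79me2 peak with 2 H3K79me3 peaks, against 34 such regions in the control libraries. The reverse arrangement, 2 H3K79me2 peaks with 1 H3K79me3 peak, occurred 1 time in the knockdown and 23 times in the control libraries. In the 150 split regions the gap between the H3K79me3 peaks was short, with a median of 119 bp, and the H3K79me2 summit fell in that gap in 3 regions and inside an H3K79me3 peak in 145. The denser of the paired H3K79me3 peaks had a median of 1.19 times the density of the other.

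Within shared regions the H3K79me3 peak was narrower than the H3K79me2 peak and lay inside it. The median width was 3419 bp for H3K79me2 and 2211 bp for H3K79me3. H3K79me3 was the narrower mark in 4967 of 5129 regions (96.8%, 96.3 to 97.3), its median width was 0.703 of the H3K79me2 width, and in 1062 regions (20.7%) it was under 50% of it. Of the 4976 regions with 1 peak of each mark, the H3K79me3 peak lay wholly inside the H3K79me2 peak in 4180 (84.0%, 83.0 to 85.0), H3K79me2 lay inside H3K79me3 in 34 (0.683%), and 762 (15.3%) were staggered, each mark running past the other at 1 end. In the control libraries the nested share was lower, at 63.4%, and the staggered share was 32.3%.

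Differences in which sites were called do not enter when the same regions are followed in both lines. In 3760 regions with exactly 1 peak in each of the 4 lists, the median H3K79me3 width was 0.743 of the H3K79me2 width in the knockdown and 0.761 in the control libraries. H3K79me3 was narrower in 96.8% and 92.3% of them, and in both lines in 3380 (89.9%). Nesting of H3K79me3 inside H3K79me2 was seen in 83.7% in the knockdown and 63.3% in the control libraries, and in both lines in 2028 (53.9%). Between the lines the same mark differed less in width than the marks differed within a line: the knockdown to control width ratio had a median of 1.07 for H3K79me2 and 1.04 for H3K79me3. The estimated fragment length was longer for H3K79me2 in the knockdown, where nesting was more frequent, and longer for H3K79me3 in the control libraries. The parts of fragment length and of tag density in the called widths and in nesting were not tested.

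**Figure D1:**
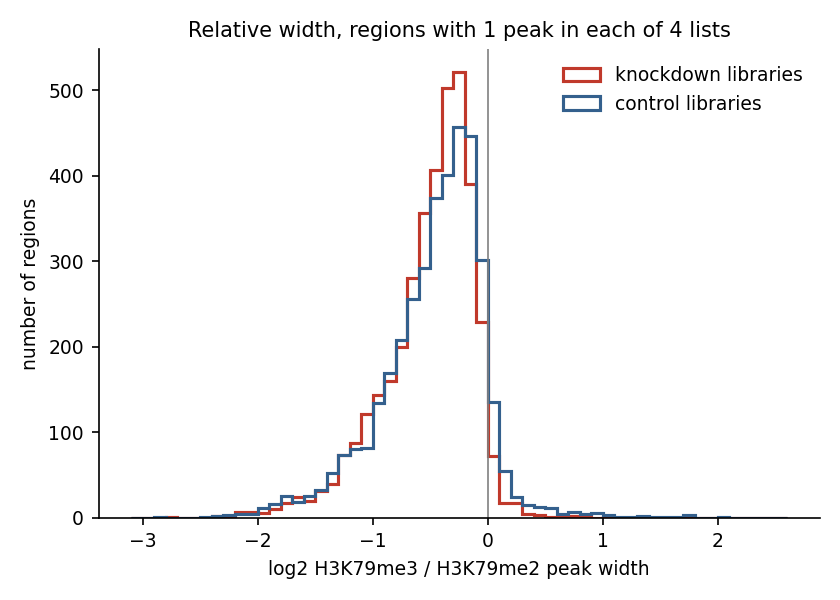
Histogram of the log2 ratio of H3K79me3 to H3K79me2 peak width (x axis) in the 3760 regions with 1 peak in each of the 4 lists, as the number of regions per bin (y axis), for the knockdown and control libraries. Most regions of both lines lie to the left of 0, where H3K79me3 is the narrower mark: 96.8% in the knockdown and 92.3% in the control libraries.

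The overhangs of H3K79me2 past H3K79me3 at the ends of a region were set side by side as the shorter and the longer, an order that fixes which is larger. Among the 4180 nested regions the shorter overhang had a median of 194 bp and the longer a median of 785 bp, and in 2433 (58.2%) the longer was over 3 times the shorter, against 68.9% in the control libraries. The longer overhang was at the end with the higher coordinate in 49.9%, so along the chromosome no side was favoured; gene direction was not used here. The H3K79me3 summit was displaced from the H3K79me2 summit away from the longer overhang in 53.1% (51.5 to 54.6) in the knockdown and in 47.0% (45.1 to 48.8) in the control libraries. Nested regions were chosen separately in each line, so these shares do not show whether single regions kept the side of the displacement. Both summits lay well inside the H3K79me2 peak and off its centre, at a median of 29.8% of its width from the nearer end for the H3K79me2 summit and 29.5% for the H3K79me3 summit.

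Named regions give the range of these shapes. They were taken by rank among 4000 regions that lay outside input peaks, had 1 peak of each mark and held at least 50 tags of each, and all coordinates are hg19. At chr22:39745643-39751255 the H3K79me2 peak was 5613 bp wide and the H3K79me3 peak 1067 bp, or 19.0% of it, and at chr15:83614332-83621442 the widths were 7111 and 1373 bp. Neither region had an H3K79me3 peak in the control libraries, where the H3K79me2 peaks were 1436 and 1159 bp wide. The third of this rank, chr18:44696025-44703032, had widths of 7008 and 1359 bp and did have a control H3K79me3 peak, of 2299 bp. Its control H3K79me2 peak was 6935 bp wide. The opposite shape was rarer. At chr14:78076452-78083049 the H3K79me3 peak spanned 6548 bp and the H3K79me2 peak 3199 bp, a ratio of 2.05, and at chr21:46288125-46293688 the widths were 5304 and 3167 bp. In the control libraries H3K79me3 was the narrower mark at both, with 2349 against 3160 bp at the first and 3014 against 7451 bp at the second.

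The points of highest signal of the marks lay close together. The summits were a median of 179 bp apart (172 to 187) in the 5129 shared regions, within 50 bp in 17.5%, within 200 bp in 53.6% and within 1000 bp in 94.4%. The H3K79me3 summit was inside an H3K79me2 peak in 99.7% of regions and at the higher coordinate in 50.4%. Libraries of the same mark had summits about as far apart. In the 3760 regions with 1 peak in every list the median distance from H3K79me3 to H3K79me2 was 168 bp in the knockdown and 173 bp in the control libraries, while knockdown and control summits were 171.5 bp apart for H3K79me2 and 165 bp apart for H3K79me3. The share within 200 bp was 55.7%, 55.3%, 54.9% and 56.3% in the same order. At the precision of these lists a displacement between the marks could not be told from the displacement between 2 libraries of 1 mark.

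**Figure D2:**
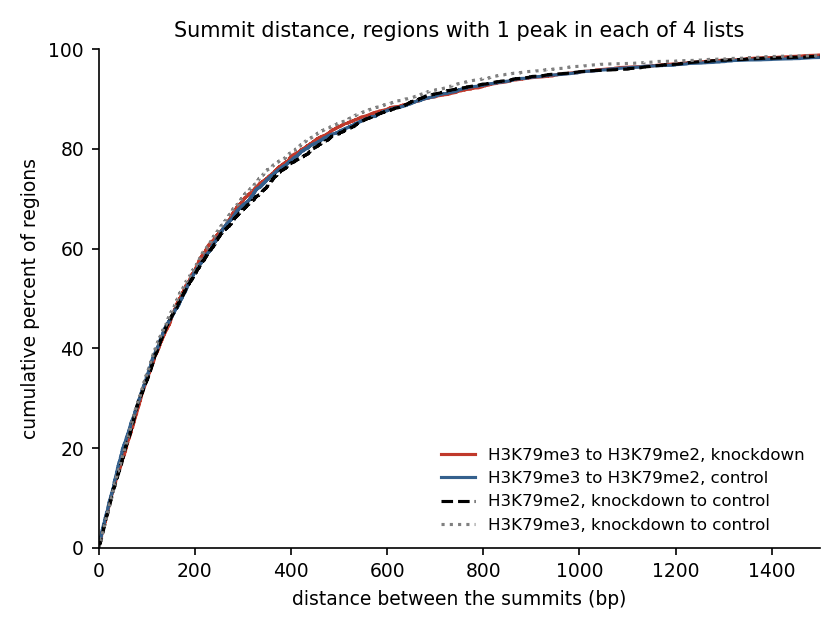
Cumulative percent of the 3760 regions with 1 peak in each list (y axis) whose summits lie within a given distance in bp (x axis), for H3K79me3 against H3K79me2 in each line and for each mark between lines. The 4 curves nearly coincide, with medians between 165 and 173 bp.

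A minority of regions had summits far apart. Of the 3760, 586 (15.6%) had knockdown summits over 500 bp apart, and 194 of these (33.1%) were over 500 bp apart in the control libraries too, against 427 of the other 3174 (13.5%). In 113 of the 194 (58.2%) the H3K79me3 summit was displaced to the same side in both lines. The widest separation among regions open to naming was at chr16:87425796-87432878, where the summits were 3302 bp apart in H3K79me2 and H3K79me3 peaks of 7083 and 6384 bp, with densities of 5.47 and 5.26 tags per kb for every 1000000 filtered tags. At chr7:121778906-121784427 they were 3221 bp apart, in peaks of 5522 and 3896 bp with densities of 2.98 and 2.96. In both regions the marks had almost the same density.

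Density was measured as tags per kb of called peak for every 1000000 filtered tags (RPM per kb), each mark over its own peak. In shared regions the median density was 4.11 for H3K79me2 and 4.39 for H3K79me3. The densities rose together across regions, with a Spearman rho of 0.940 over 5129 regions of the same 2 libraries; regions are not independent replicates. The log2 ratio of H3K79me3 to H3K79me2 density had a median of 0.12 (0.11 to 0.14), quartiles of −0.08 and 0.33, and a range from −0.92 to 1.45. Both ends of this range lay on input peaks, and outside input peaks the range was −0.88 to 1.36. Over all 5129 regions the log2 ratio was above 0 in 3363 (65.6%). The 95% counting interval of the ratio lay wholly above 0 in 1654 (32.2%) and wholly below it in 137 (2.67%).

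Few knockdown regions had a 2-fold difference between the marks. H3K79me3 was at least 2-fold denser in 9 of 5129 regions (0.175%), and H3K79me2 in 0 (0%). In simulated lists 4576 sites held both marks, 185 of them planted with a 4-fold ratio. Of the others, planted with equal densities, 13 passed 2-fold in either direction. Their median log2 ratio was −0.004 and peak calling was not simulated, so the 13 are not a matched expectation for the data. In the control libraries H3K79me3 was at least 2-fold denser in 5 (0.111%) and H3K79me2 in 354 (7.84%) of 4518. These counts move with the scaling: by tags inside peaks they were 1 and 36 in the knockdown and 27 and 9 in the control libraries. Measured from the median ratio of its own line, 5 knockdown regions were at least 2-fold above and 2 at least 2-fold below, against 50 and 1 in the control libraries. The SD of the log2 ratio over regions was 0.30, and the root mean square of its counting standard error was 0.20. All 6 regions with an H3K79me2 density over 20 RPM per kb lay on input peaks.

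The sign of the median ratio depends on how the marks are put on 1 scale. Because the H3K79me3 peaks are narrower, the same tags counted per region and not per kb gave a median log2 ratio of −0.38, with H3K79me3 higher in 1130 regions (22%). Scaling by the tags inside peaks in place of all filtered tags moved the per-kb median to −0.29. The order of regions by per-kb ratio does not change with such library-wide scaling, so the text that follows describes which regions had higher or lower ratios.

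**Figure D3:**
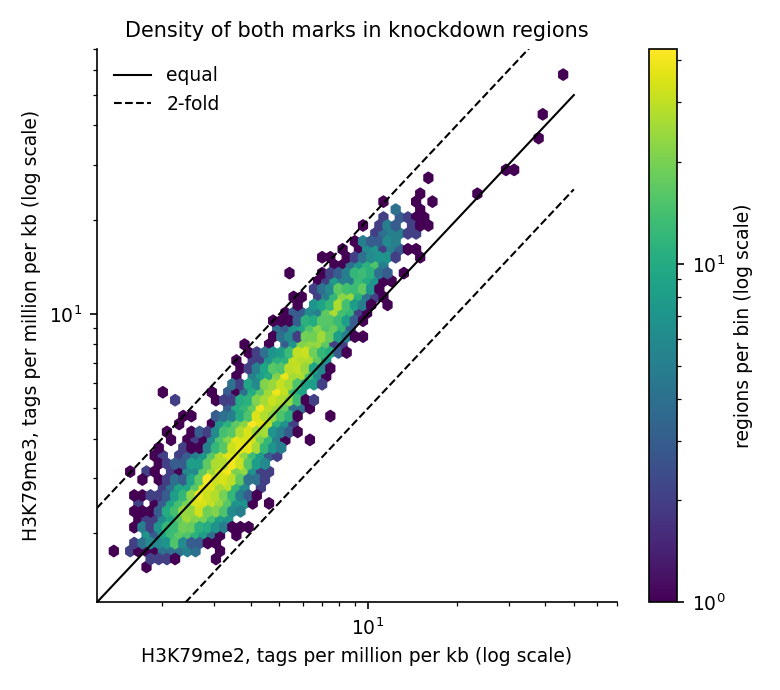
H3K79me2 density (x axis) against H3K79me3 density (y axis), both in RPM per kb on log scales, for the 5129 knockdown regions with both marks, with the number of regions per bin in colour. The solid line is equality and the dashed lines are 2-fold; 9 regions lie past 2-fold on the H3K79me3 side and 0 on the other.

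The ratio of H3K79me3 to H3K79me2 was higher in longer and in denser regions. By length of the merged region the median log2 ratio was −0.09 at 1 to 2 kb (814 regions), 0.03 at 2 to 3 kb, 0.14 at 3 to 4 kb, 0.19 at 4 to 5 kb, 0.25 at 5 to 7 kb and 0.34 above 7 kb (353 regions). The 97 regions under 1 kb were an exception, with a median of 0.26. Of these 48.5% lay on input peaks, and the 50 that did not had a median of 0.09. The same order of lengths held in the control libraries, from −0.80 at 1 to 2 kb to −0.35 above 7 kb, and for tags per region without division by length, from −0.82 to 0.00 in the knockdown. With regions split into 10 equal classes by H3K79me2 density, the median log2 ratio was between −0.06 and 0.03 in the lowest 5 classes and then rose to 0.42 in the highest. H3K79me2 density is also the denominator of the ratio. The width of H3K79me3 relative to H3K79me2 rose over the same classes, from a median of 0.467 to 0.855. The rank correlation of the ratio with region length was 0.402 over the 5129 regions.

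**Figure D4:**
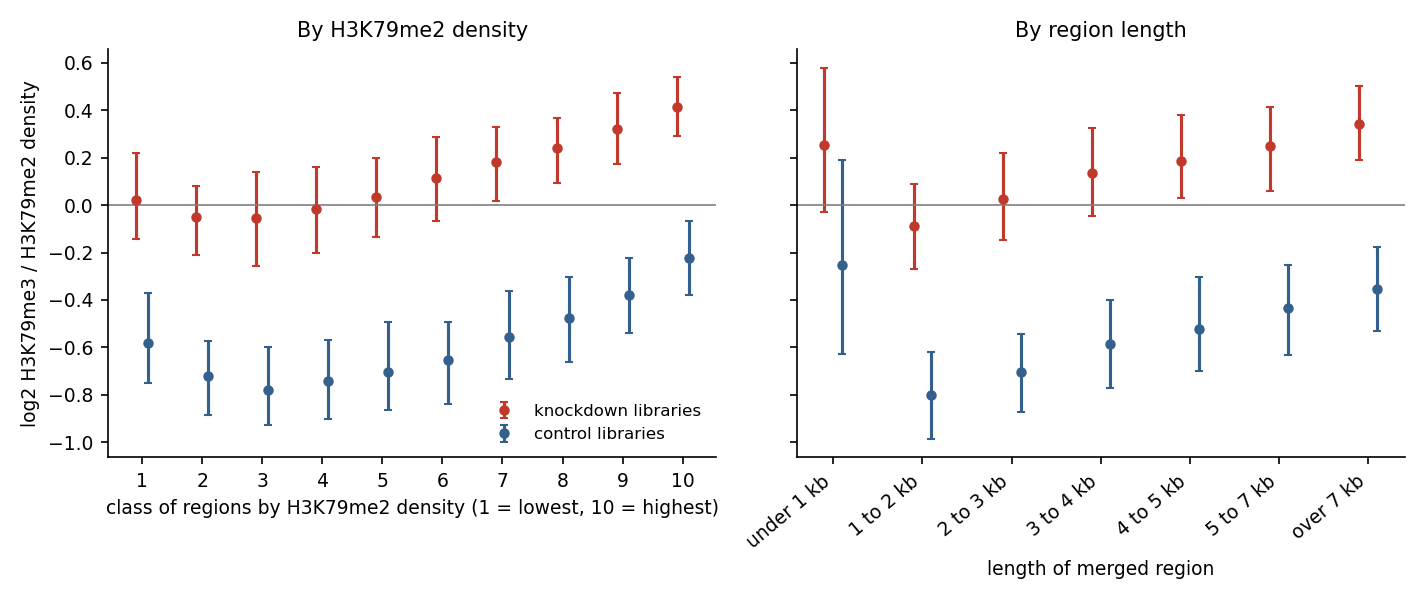
Median log2 ratio of H3K79me3 to H3K79me2 density (y axis; bars are the quartiles over regions) by H3K79me2 density in 10 classes (left) and by length of the merged region (right), in knockdown and control libraries. Knockdown medians climb to 0.42 in the densest class and 0.34 above 7 kb, and the control medians climb in parallel to −0.22 and −0.35.

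The extremes of the ratio had different shapes. The highest ratio open to naming was at chr19:4117440-4124559, where H3K79me3 reached 13.6 RPM per kb (exact Poisson 95% interval 12.3 to 14.9) in a peak of 2029 bp and H3K79me2 5.27 (4.81 to 5.75) in a peak of 7120 bp, a log2 ratio of 1.36 ± 0.09 (counting SE). Without division by length its log2 ratio was −0.45. In the control libraries the marks had peaks of similar width there, 2005 and 1913 bp, and densities of 9.31 for H3K79me3 and 14.4 for H3K79me2. At chr11:806440-812155 the densities were 15.4 for H3K79me3 and 6.96 for H3K79me2, again with a peak for H3K79me3 (2167 bp) far narrower than that for H3K79me2 (5716 bp). At chr19:17970297-17974311 H3K79me3 was higher on both scales: 22.4 (21.1 to 23.9) against 11.2 (10.3 to 12.1) RPM per kb, a log2 ratio of 1.00 ± 0.07, and 0.45 without division by length. The control densities at that region were nearly equal on the scale of filtered tags, at 16.7 for H3K79me3 and 16.8 for H3K79me2. Scaled by tags inside peaks, its log2 ratio was 0.59 in the knockdown and 0.41 in the control libraries. At chr19:4117440-4124559 the scaled log2 ratios were 0.95 and −0.21, and at chr11:806440-812155 they were 0.73 and 0.10.

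The lowest ratios were found at sites with moderate H3K79me2 and little H3K79me3. At chr22:44319741-44321538 H3K79me2 had 4.19 RPM per kb (3.40 to 5.10) and H3K79me3 2.60 (2.01 to 3.32), a log2 ratio of −0.69 ± 0.23. At chr17:46720866-46724570 the densities were 4.33 and 2.77, with a log2 ratio of −0.64 ± 0.16. The 5 lowest regions lay between −0.69 and −0.64, or between −1.10 and −1.05 when scaled by tags inside peaks. They rested on 53 to 122 H3K79me3 tags, and included 2 with no H3K79me3 peak in the control libraries.

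Regions strong in both marks were long. Ranked by the lower of the densities, the first was chr17:73142611-73150858, with 16.8 RPM per kb of H3K79me2 (16.0 to 17.6) and 22.4 of H3K79me3 (21.6 to 23.2) in peaks of 8248 and 7697 bp. At chr2:232571973-232579015 H3K79me2 was at 15.9 and H3K79me3 at 27.6. The log2 ratio at the 5 regions of this rank ran from 0.22 to 0.80, and from −0.19 to 0.39 when scaled by tags inside peaks. The widths of the marks were closer than in most regions, with H3K79me3 at 77.1% to 95.4% of the H3K79me2 width. This range spans the median ratio of 0.855 in the class of regions densest in H3K79me2. In the control libraries the log2 ratios of the same 5 regions ran from −0.44 to −0.06. When scaled by tags inside peaks they ran from −0.018 to 0.36. The direction of the difference between the lines turned with this scaling at most of the 5, but not at chr2:232571973-232579015. There the scaled log2 ratio was 0.39 in the knockdown and 0.12 in the control libraries.

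The knockdown ratio was compared with that of the control libraries over 3913 regions holding both marks in both lines. The median densities there were 4.69 RPM per kb of H3K79me2 and 5.26 of H3K79me3 in the knockdown, and 5.30 and 3.41 in the control libraries. The median log2 ratio was 0.19 in the knockdown and −0.59 in the control libraries, and the median of the difference was 0.76 (0.75 to 0.77), with quartiles of 0.58 and 0.94. The ratio was higher in the knockdown in 3853 regions (98.5%), and by at least 2-fold in 777 (19.9%), against 2 (0.0511%) lower by as much. H3K79me3 was the denser mark in the knockdown and H3K79me2 in the control libraries in 2759 regions (70.5%), H3K79me2 was denser in both in 970 (24.8%) and H3K79me3 in both in 172 (4.40%). Scaled by tags inside peaks, that split became 287 (7.33%), 2449 (62.6%) and 550 (14.1%), with H3K79me2 denser in the knockdown and H3K79me3 in the control libraries in the other 627 (16.0%).

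That shift had a similar median in the length classes above 1 kb, varied between single regions and depended on the scaling. Its 10th and 90th percentiles over the 3913 regions were 0.39 and 1.14. By length the median difference lay between 0.70 and 0.80 in every class above 1 kb, and it was 0.17 in the 34 regions under 1 kb. The share of filtered tags inside peaks was higher for H3K79me3 than for H3K79me2 in the knockdown (14.3% and 10.8%) and lower in the control libraries (9.75% and 13.0%). Scaled by the tags inside peaks the median difference was −0.073, with 39.2% of regions above 0. This scaling gives every library the same total of tags inside peaks, so it cannot show a difference in total peak signal. Those totals include regions with 1 mark alone. In the knockdown these held 34.6% of the H3K79me3 and 3.62% of the H3K79me2 tags in peaks, and in the control libraries 25.8% and 8.73%. A difference in antibody enrichment between single libraries and a difference in the marks cannot be told apart from these lists. Regions kept part of their rank: the ratios of the lines had a Spearman rho of 0.525 over the 3913 regions, which come from 4 different libraries.

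Sites with H3K79me3 alone included some of the longest and densest in the list. Their median length was 3774 bp. Regions with both marks had a median H3K79me3 width of 2211 bp and a median merged length of 3436 bp. The median density of sites with H3K79me3 alone was 4.47 RPM per kb, against 4.39 RPM per kb of H3K79me3 in regions with both marks. They held 34.6% of all H3K79me3 tags in peaks. Of the 1760, 843 (47.9%) were longer than 4 kb, and these held 85.7% of the tags of the class. Density rose with length, from a median of 2.16 in the 285 regions under 1 kb, 22.1% of which lay on input peaks, to 8.34 in the 294 regions over 7 kb. Their scores, which the peak caller derives from its p-value against the local background, were low, with a median of 105 against 278 for H3K79me3 in regions with both marks.

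Sites with H3K79me2 alone were short and weak. Their median length was 1326 bp, their median density 2.12 RPM per kb and their median tag count 37, against 4.11 RPM per kb and 191 tags of H3K79me2 in shared regions. They held 3.62% of the H3K79me2 tags in peaks, and 38 of 1045 were longer than 4 kb. The density of this class also varied less, with 10th and 90th percentiles of 1.70 and 2.67 RPM per kb, against 2.22 and 10.3 for H3K79me3 alone.

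Above 2 kb the share of peaks lacking the other mark ran in opposite directions with peak width for the 2 marks, while both shares fell from the class under 1 kb to that of 1 to 2 kb. Among H3K79me2 peaks the share with no H3K79me3 peak fell from 72.7% (68.0 to 76.9) under 1 kb to 38.7% at 1 to 2 kb, 8.16% at 2 to 4 kb, 1.98% at 4 to 7 kb and 1.14% (0.310 to 2.88) above 7 kb. Among H3K79me3 peaks the share with no H3K79me2 peak was 25% under 1 kb, 12.6% at 1 to 2 kb, 17.7% at 2 to 4 kb, 37.9% at 4 to 7 kb and 84.0% (79.7 to 87.7) above 7 kb, where 294 of 350 peaks had none. The control libraries had the same pattern, with 66.8% of H3K79me3 peaks and 4.16% of H3K79me2 peaks above 7 kb lacking the other mark. No list held a peak wider than 9166 bp, the widest knockdown H3K79me2 peak was 8846 bp, and the caller measured local background over 10000 bp. The part of this window in the absence of H3K79me2 peaks from long H3K79me3 regions was not tested.

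**Figure D5:**
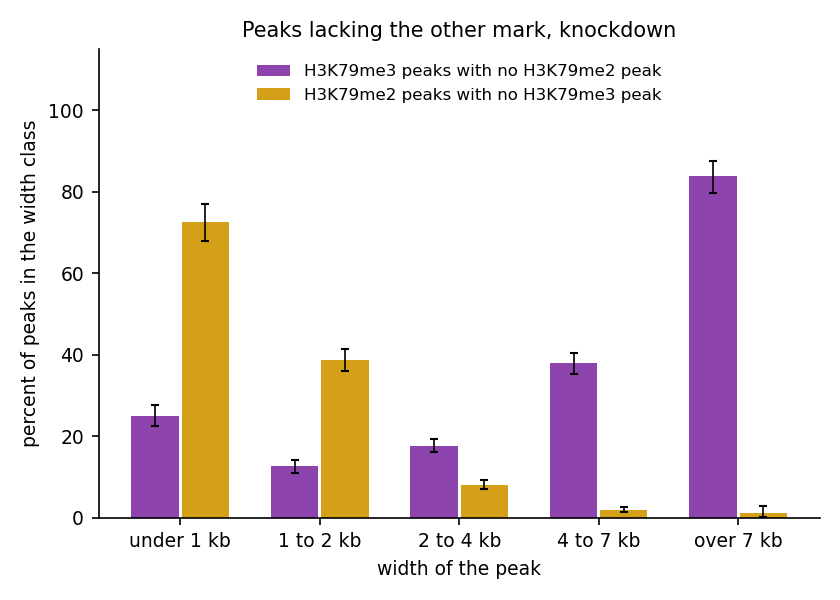
Percent of knockdown peaks that share no base with a peak of the other mark (y axis) by width of the peak (x axis), for H3K79me3 and H3K79me2; bars on the columns are exact binomial 95% intervals. The H3K79me3 share is highest above 7 kb (84.0%) and the H3K79me2 share is highest under 1 kb (72.7%).

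Few sites with 1 mark lay next to a peak of the other. Of these, 71 of the 1760 sites with H3K79me3 alone (4.03%) lay within 1000 bp of an H3K79me2 peak, and 21 of the 1045 sites with H3K79me2 alone (2.01%) within 1000 bp of an H3K79me3 peak. Within 10000 bp the shares were 12.2% and 11.8%.

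The control lists differed at the 2 kinds of site. The H3K79me2 peak missing from the knockdown was present in the control libraries at 698 sites with H3K79me3 alone (39.7%, 37.4 to 42.0), and 511 (29.0%) held both marks there. Of all 1760, 1056 (60.0%) had an H3K79me3 peak in the control libraries and 517 (29.4%) had no control peak of either mark. The H3K79me3 peak missing at sites with H3K79me2 alone was present in the control libraries at 62 of 1045 (5.93%, 4.58 to 7.54), 550 (52.6%) had an H3K79me2 peak there, and 484 (46.3%) had neither. For sites with 1 mark in the control libraries the order turned. The missing mark was present in the knockdown at 51.3% of those with H3K79me2 alone and 11.1% of those with H3K79me3 alone. In both directions the higher share was that of the mark with more peaks in the list searched. Those lists held 6808 H3K79me2 and 5575 H3K79me3 peaks in the control libraries, and 6176 and 7042 in the knockdown. The shares over all regions are not given here. The absence of a peak is not a measured level of 0: these lists give no tag counts outside peaks.

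Of the 5 highest-scoring sites with H3K79me3 alone, 4 held both marks in the control libraries, against 29.0% of all 1760 such sites. The first, chr19:8509684-8514591, had 2179 H3K79me3 tags, or 27.1 RPM per kb (26.0 to 28.2), and no peak of either mark in the control libraries. At chr1:28555076-28559791 the knockdown H3K79me3 density was 21.8, and the control libraries had 14.5 of H3K79me2 and 16.9 of H3K79me3. At chr21:44491940-44496028 it was 17.4, with 15.8 and 14.0 in the control libraries. The sites ranked between and after these, chr3:50126002-50130270 at 14.4 and chr17:27046711-27050940 at 16.3, also held both marks in the control libraries. So 4 of the 5 had H3K79me2 in the control list at a density above the median of shared regions.

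The highest-scoring sites with H3K79me2 alone were far weaker. At chrX:134166301-134167593 there were 46 tags, or 2.71 RPM per kb (1.98 to 3.61), and the control libraries held both marks, at 2.43 for H3K79me2 and 2.13 for H3K79me3. At chr1:223899924-223902010 H3K79me2 was at 3.68 (3.0 to 4.47) and the control libraries held H3K79me2 alone, at 2.75. The densities of all 5 sites ran from 2.71 to 3.68 RPM per kb, and 1 of them had an H3K79me3 peak in the control libraries.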

How the data were processed

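Alignment used Bowtie2 on hg19 (GRCh37), per the submitters' processing notes, which name no version. Peak calling used MACS 1.4.2 on each library alone, per the file headers; the headers list no control file, a cutoff of 1e-05 on p, 300 bp as band width, 1 tag kept per position and 10000 bp as the window for regional background. The deposited tag column is a raw count per peak, the deposited significance column was treated as a score (10 times −log10 p, at least 50), and the deposited fold enrichment is a ratio computed by the caller within its library. From these, densities, distances, widths and nesting were computed with Python 3.11.15, pandas 2.3.3 and scipy 1.17.1. Medians carry order-statistic intervals, shares exact Clopper-Pearson intervals and single densities exact Poisson intervals. The scripts were tested on simulated peak lists of 4976 sites: all 200 planted H3K79me3-only sites, all 200 H3K79me2-only sites and all 185 sites with a 4-fold ratio were recovered, and 13 other sites passed 2-fold. Simulated sites were set far apart and sites with 1 mark were made by leaving out a peak, so recovery of those sites was certain. Peak calling and its local background were not simulated.

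Regions named in the text are the extremes, in rank order, of the density ratio, summit distance, width ratio, joint density and, for sites with 1 mark, score, outside input peaks. The members and measures were chosen with earlier results of these data known. Peaks outside chromosomes 1 to 22 and X, 173 for H3K79me2 and 225 for H3K79me3 in the knockdown, were left out. Genes and sequences were not assigned, since no hg19 genome or annotation was used here. Alternatives covered the overlap rule, score, number of peaks, input peaks, long peaks, scaling, length division, summits and boundaries.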

Additional observations from a re-analysis of the deposited data

Results flagged for a closer look

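The ratio of H3K79me3 to H3K79me2 density had opposite signs in the library pairs: over 3913 regions with both marks in both lines its median log2 value was 0.19 in the knockdown pair and −0.59 in the control pair. With 1 library per group the difference was not tested, and its sign depended on the scaling.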

How the results depend on the processing

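No paired analysis was possible because every group is 1 library. The median log2 density ratio of H3K79me3 to H3K79me2 in the knockdown, 0.12, became −0.29 when scaled by tags inside peaks and −0.38 per kb of the merged region or undivided by length. It was 0.16 with 50% reciprocal overlap, 0.16 at scores of 100 or more, 0.14 with the same number of peaks in both lists and 0.11 without regions holding a peak over 7 kb. The knockdown to control difference, 0.76, became −0.073 scaled by tags inside peaks and 0.72 per kb of the merged region or undivided; the scaling reversals come with the shares of tags in peaks given above. At scores of 100 or more, regions with H3K79me2 alone numbered 469 in place of 1045, the median summit distance was 168.5 bp in place of 179 bp and the median log2 width ratio was −0.44 in place of −0.51. Without peaks over 7 kb the width ratio was −0.53. With boundaries within 100 bp taken as equal, the nested share was 92.4% in place of 84.0%. With the same number of peaks in both lists, regions with H3K79me3 alone went from 1760 to 1257 and those with H3K79me2 alone from 1045 to 1338, so which mark had more sites alone turned. The remaining alternatives kept counts within 1.5 times and values within their interval. Depth limits single regions: the median counting SE of a log2 ratio was 0.15.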
